A study of Mus musculus with 9 samples.

Results

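The integrin subunits that bind the extracellular matrix were followed through primary 4T1 breast tumors of mice given the focal adhesion kinase inhibitor BI 853520 (hereafter BI). The set held 10 genes, chosen by symbol and found by Entrez identifier among the 18755 genes of the deposited counts: the α chains Itga1, Itga2, Itga3, Itga5, Itga6 and Itgav, and the β chains Itgb1, Itgb3, Itgb4 and Itgb5. The rule selects by symbol, but the set and the lists were drawn up with earlier results of these data known. Their counts set against all genes are therefore descriptive. All 10 passed the filter on low counts.

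Every tumor grew from 1000000 cells of the 4T1 line, which was derived from a spontaneous mammary tumor of a BALB/c mouse, in a mammary fat pad of female BALB/c mice 6 to 10 weeks old. From day 15 after injection the mice received 50 mg/kg BI by mouth (6 tumors) or the vehicle Natrosol at 0.5% (3 tumors) for 5 days. The paper states that its sequencing analysis kept only tumors whose RNA quality was sufficient. RNA came from pieces of whole tumor, so cancer cells, vessels, fibroblasts and immune cells contributed to each value. In such material, fewer cells of a type and less RNA per cell cannot be told apart. Each sample carries its own identifier, but the labels do not say whether each tumor came from a separate mouse, so p-values measure the spread between these samples. The labels name no batch.

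Integrins are cell surface receptors made of an α and a β chain, and a chain reaches the surface only with a partner. The pair decides the ligand. Paired with the β1 chain, α1 and α2 bind collagens, α3 and α6 bind laminins of basement membranes, and α5 binds fibronectin. Within the set, the αv chain pairs with β1, β3 or β5 and recognises the arginine-glycine-aspartate (RGD) motif of fibronectin, vitronectin and osteopontin. The β4 chain pairs with α6 alone and anchors epithelial cells through hemidesmosomes. Ligand binding clusters integrins into focal adhesions, where focal adhesion kinase (FAK, encoded by Ptk2) is recruited and activated. Most cells of a tumor carry β1 integrins, whereas α6β4 belongs mainly to epithelial cells and αvβ3 to growing vessels, macrophages and some cancer cells.

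The library totals ranged from 16931607 to 33850245 counts, so that 3 counts, the floor used here, corresponded to 0.0884 to 0.174 CPM, counts scaled to a library of 1000000, and counting error was small for every member. The lowest count of any member was 191, for Itga2. CPM were scaled with TMM factors between 0.984 and 1.02. Of the markers of tumor epithelium, a pair of keratins was abundant: Krt8 was at 478 CPM and Krt18 at 579 CPM in vehicle-treated tumors, whereas Epcam was at 2.13 CPM and Krt5 and Krt14 averaged under 1 CPM. BI against vehicle was tested with the quasi-likelihood test of edgeR over 13966 genes, and each adjusted p given is its Benjamini-Hochberg adjusted p over all these genes. At the threshold of 0.05, 14.1% of all genes tested fell and 14.6% rose, and the median log2 fold change of all of them was -0.0037.

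Of the 10 members, 4 fell against that background of 14.1%, 1 rose against 14.6%, and 5 did not pass the test. All 4 that fell were α chains: Itga3 and Itga2 by close to the same factor, then Itga6 and Itgav. Itgb1, the partner shared by most of them, did not pass the test. In the same 4 genes each of the 6 BI-treated tumors lay below every vehicle-treated tumor, which was so for 14.0% of all genes tested. No member had all BI-treated tumors above the vehicle-treated ones, against 14.1% of all genes. With the cutoffs of the study's methods, an unadjusted p of at most 0.05 and a change of at least 1.5-fold, 3 members fell (Itga2, Itga3 and Itga6) and none rose. Of all 13966 genes tested, 498 (3.57%) fell and 1337 rose by these cutoffs. The median log2 fold change of the members was -0.12.

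**Figure D1:**
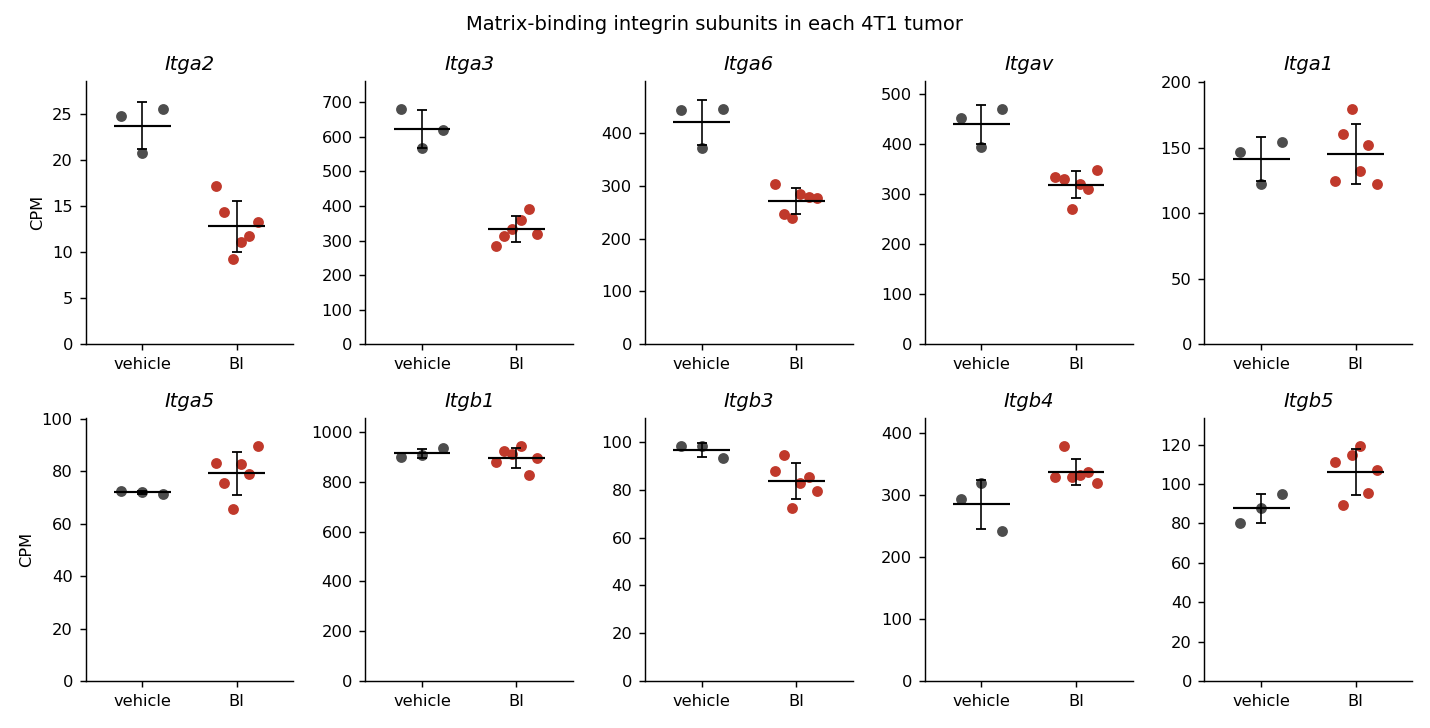
Each panel shows 1 integrin gene, with TMM-normalized CPM on a linear axis from 0 and 1 point for each tumor (grey, 3 vehicle; red, 6 BI). The horizontal line is the group mean and the bar its SD. The upper row begins with Itga2, Itga3, Itga6 and Itgav, where the groups do not overlap, and in the other 6 panels they do.

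The region just upstream of the start site is shown for 3 of the genes that fell and for their partner Itgb1, to set the start regions of called and uncalled chains side by side. RefSeq promoter entries (GRCm38.p6) were found for 7 of the 10 members; Itga6, Itgb3 and Itgb4 had no entry. Each run is the 250 bases before the RefSeq start, on the strand of the gene, and matched the mm9 assembly of the counts exactly once. For Itga3 the last 87 bases, which the mm9 annotation places inside the gene, are left off the print. The mm9 positions are chr11:94938116-94938278 (minus strand) for Itga3, at the more upstream of its 2 starts, chr13:115722309-115722558 (minus strand) for Itga2, chr2:83564304-83564553 (plus strand) for Itgav and chr8:131209304-131209553 (plus strand) for Itgb1. Capitals mark a GC box (GGGCGG, bound by Sp family factors) or a TEAD site (GGAATG).
Itga3: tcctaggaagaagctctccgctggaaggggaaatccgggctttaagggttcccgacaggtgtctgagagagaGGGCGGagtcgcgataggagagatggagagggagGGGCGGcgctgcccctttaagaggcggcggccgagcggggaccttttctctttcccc
Itga2: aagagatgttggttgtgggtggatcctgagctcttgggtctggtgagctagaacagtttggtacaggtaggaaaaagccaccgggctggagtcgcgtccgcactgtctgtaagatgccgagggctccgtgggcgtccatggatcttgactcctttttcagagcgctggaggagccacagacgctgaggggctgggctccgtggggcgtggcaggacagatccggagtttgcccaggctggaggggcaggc
Itgav: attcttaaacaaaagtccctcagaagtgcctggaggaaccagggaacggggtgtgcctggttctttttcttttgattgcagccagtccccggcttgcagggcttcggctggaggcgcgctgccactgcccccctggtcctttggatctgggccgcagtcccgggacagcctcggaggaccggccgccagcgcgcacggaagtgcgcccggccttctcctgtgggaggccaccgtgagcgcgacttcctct
Itgb1: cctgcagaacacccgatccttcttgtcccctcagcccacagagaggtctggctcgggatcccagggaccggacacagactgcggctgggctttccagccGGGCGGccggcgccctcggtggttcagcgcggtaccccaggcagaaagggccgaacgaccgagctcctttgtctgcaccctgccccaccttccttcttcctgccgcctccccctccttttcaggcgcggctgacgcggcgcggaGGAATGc

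Itga3 held 3 GC boxes, beginning 178, 144 and 35 bases before the start (the last of them in the part not printed), and Itgb1 held 1 at 151 bases and a TEAD site at 7 bases. Neither motif was found in the runs of Itga2 and Itgav. Both strands were searched, also for the AP-1 motif TGANTCA and for the box named after its letters CCAAT. A search for the TATA motif, spelled TATAAA, was added, and none of these stood in the 4 runs. Among all 32851 promoters of this length, 32.7% held a GC box, 12.6% a TEAD site, 6.7% an AP-1 site, 33.8% a CCAAT box and 12.4% a TATA box. The bases G and C made up 67.6% of the Itga3 run, 60.8% of the Itga2 run, 64.4% of the Itgav run and 68.0% of the Itgb1 run, against a median of 52.4%. A match describes the letters of the run and is no evidence of binding.

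Both laminin-binding α chains of the set fell. Itga3 (chromosome 11, 94905788 to 94938115, minus strand, mm9) encodes the α3 chain, a partner of β1. It was at 679.8, 568 and 620.2 CPM in vehicle replicates 1 to 3, and between 284 and 389.9 CPM with a median of 326 in the BI-treated tumors. The highest BI-treated tumor was well below the lowest vehicle-treated one. The log2 fold change was -0.90 (SE 0.0931, adjusted p = 5.7e-05), which is 1.87-fold lower (95% interval of the log2 value -1.11 to -0.70). By p, Itga3 ranked 131 of all genes tested.

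Itga6 (chromosome 2, 71583673 to 71696473, plus strand) encodes α6, the chain that laminin-binding α6β1 and hemidesmosomal α6β4 share. Its levels were 445, 372 and 446 CPM in vehicle replicates 1 to 3, and 240.3 to 304 CPM with a median of 278 in the BI-treated tumors. The groups did not overlap, and vehicle replicate 2 was the lowest of its group for Itga2, Itga3, Itga6 and Itgav alike. Itga6 fell by 0.63 on the log2 scale (SE 0.0849, adjusted p = 0.000295).

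Itgb4 (chromosome 11, 115836023 to 115869726, plus strand) encodes the β4 chain, whose long cytoplasmic tail binds plectin. Unlike its partner Itga6 it was not lower in BI-treated tumors: it was at 294, 319 and 242 CPM in vehicle replicates 1 to 3 and at 318 to 379 CPM with a median of 331 after BI. Vehicle replicate 2, at 319 CPM, lay just above the lowest BI-treated tumor, so that the groups overlapped. The log2 fold change of 0.24 (SE 0.0863, 95% interval 0.06 to 0.43) missed the threshold at an adjusted p of 0.0529. It passed under 6 of 15 alternatives. The adjusted p was 0.0234 by DESeq2, 0.0444 by limma-voom and 0.0255 by edgeR when vehicle replicate 2 was left out. The others were changes of scaling or filter with all tumors kept. An exon overlap of 437 bases with B230344G16Rik on the opposite strand is annotated, and the sources used here do not state whether counting used the strand.

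The collagen receptors split. Itga2 (chromosome 13, 115626124 to 115722249, minus strand) encodes α2, the collagen receptor of epithelial cells and platelets. Per length it was the least abundant member, and it was at 24.8, 20.8 and 25.5 CPM in vehicle replicates 1 to 3 and at 9.22 to 17.1 CPM with a median of 12.5 after BI. All 6 BI-treated tumors were lower than all 3 vehicle-treated tumors. Itga2 changed by -0.89 on the log2 scale (SE 0.156, adjusted p = 0.00156), or 1.85-fold lower.

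Itga1 (chromosome 13, 115748287 to 115892172, minus strand), its neighbour on the chromosome, encodes α1, the collagen IV receptor of smooth muscle, fibroblasts and vessels. It was at 147, 122 and 154 CPM in vehicle replicates 1 to 3 and ranged from 122 to 179 CPM around a median of 142 after BI. The groups overlapped, with 2 BI-treated tumors above all vehicle-treated ones. Its log2 fold change was 0.04 with a 95% interval of -0.22 to 0.31 (adjusted p = 0.831), and its sign changed without vehicle replicate 2 (-0.05) or without BI replicate 3 (-0.03).

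Of the receptors for RGD ligands, only Itgav fell at the threshold. Itgav (chromosome 2, 83564554 to 83647073, plus strand) encodes αv, the chain common to the αvβ1, αvβ3 and αvβ5 receptors. It was at 453, 395 and 469 CPM in vehicle replicates 1 to 3 and at 270.5 to 347 CPM with a median of 325 after BI. The 2 ranges were separate, and the log2 fold change was -0.46 (SE 0.0818, adjusted p = 0.00167). Gm13684, on the opposite strand, overlaps 634 exonic bases of Itgav.

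Itgb5 (chromosome 16, 33829751 to 33949239, plus strand) encodes β5, whose αvβ5 receptor binds vitronectin. It was at 80.1, 87.9 and 95 CPM in vehicle replicates 1 to 3 and at 89.3 to 119 CPM with a median of 109 after BI. Among BI-treated tumors 5 exceeded all vehicle-treated ones. A log2 fold change of 0.28 (SE 0.0934) passed the threshold narrowly, at an adjusted p of 0.0433. The call was marginal, with a log2 fold change of 0.22 to 0.34 when single tumors were left out. The adjusted p was 0.179, 0.105 and 0.0538 without vehicle replicates 1, 2 and 3, and 0.0687, 0.0715, 0.0795 and 0.0636 without BI replicates 1, 3, 4 and 6. Without a filter on low counts it was 0.0534.

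Itgb3 (chromosome 11, 104469370 to 104531790, plus strand) encodes β3, the partner of αv on growing vessels and of αIIb on platelets. Its values were 98.1, 98.4 and 93.2 CPM in vehicle replicates 1 to 3 and 72.2 to 94.6 CPM with a median of 84 after BI. Only 1 BI-treated tumor reached into the vehicle range. The log2 fold change of -0.21 (SE 0.075, 95% interval -0.37 to -0.04) had an adjusted p of 0.0585, which became 0.0189 without BI replicate 2.

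Itga5 (chromosome 15, 103174720 to 103197194, minus strand) encodes α5, the classical fibronectin receptor with β1. It was at 72.4, 72.0 and 71.4 CPM in vehicle replicates 1 to 3, and between 65.6 and 89.7 CPM with a median of 80.8 after BI. The BI-treated tumors surrounded the vehicle values. Between the groups the log2 difference was 0.14 with a 95% interval of -0.04 to 0.32 (adjusted p = 0.226), and the adjusted p was 0.0461 without BI replicate 3, the lowest tumor.

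Itgb1 (chromosome 8, 131209554 to 131257100, plus strand) encodes β1, the partner of all α chains of the set. It was at 898, 909 and 936 CPM in vehicle replicates 1 to 3 and at 829 to 944 CPM with a median of 904 after BI. The vehicle-treated tumors lay inside the BI range. The log2 fold change was -0.03 with a 95% interval of -0.16 to 0.11 (adjusted p = 0.776), so that a fall of the size seen in Itga3, Itga2, Itga6 or Itgav lay outside its interval. The sign turned without BI replicate 5 (0.0036).

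An exact two-sided permutation test of the mean log2 CPM over all 84 divisions of the 9 tumors gave p = 0.0238 for Itga2, Itga3, Itga6 and Itgav, which is the smallest value this design allows. The same exact test gave p = 0.0476 for each of Itgb3, Itgb4 and Itgb5. It gave p = 0.19 for Itga5, p = 0.595 for Itgb1 and p = 0.833 for Itga1 (exact, two-sided). These p-values are not adjusted for the 10 genes.

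Levels of different genes were compared per length, as CPM per kilobase (kb) of the deposited gene length. In vehicle-treated tumors Itgb1 stood first at 218 ± 4.66 CPM per kb (SD, n = 3), followed by Itga3 at 128 ± 11.5. Next came Itga6 at 69.9 ± 7.05 and Itgav at 62.2 ± 5.54, whose ranges overlapped, and Itgb4 at 46.2 ± 6.39. Itgb5 (26.7 ± 2.26) and Itga1 (23.6 ± 2.78) overlapped, as did Itgb3 (16.7 ± 0.507) and Itga5 (16.5 ± 0.119), and Itga2 was last at 5.62 ± 0.602. Itgb1 was above 98.5% of all genes tested by this measure.

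After BI the order changed in its middle. Itga3 fell to 68.6 ± 7.69 CPM per kb (SD, n = 6) and overlapped with Itgb4, which stood at 54.7 ± 3.45 and moved from rank 5 to rank 3. Itgav and Itga6 were level at 45.2 ± 3.79 and 45.2 ± 4.01. Itgb1 remained first at 214 ± 9.56 and Itga2 last at 3.04 ± 0.657, and both were separate from their neighbours. Itgb5 (32.4 ± 3.54) overlapped with Itga1 (24.3 ± 3.79), Itga1 with Itga5 (18.2 ± 1.88), and Itga5 with Itgb3 (14.5 ± 1.33). With the mm9 exon union lengths the order in vehicle-treated tumors was the same, and after BI Itgb5 stood at rank 4, ahead of Itga6 and Itgav.

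**Figure D2:**
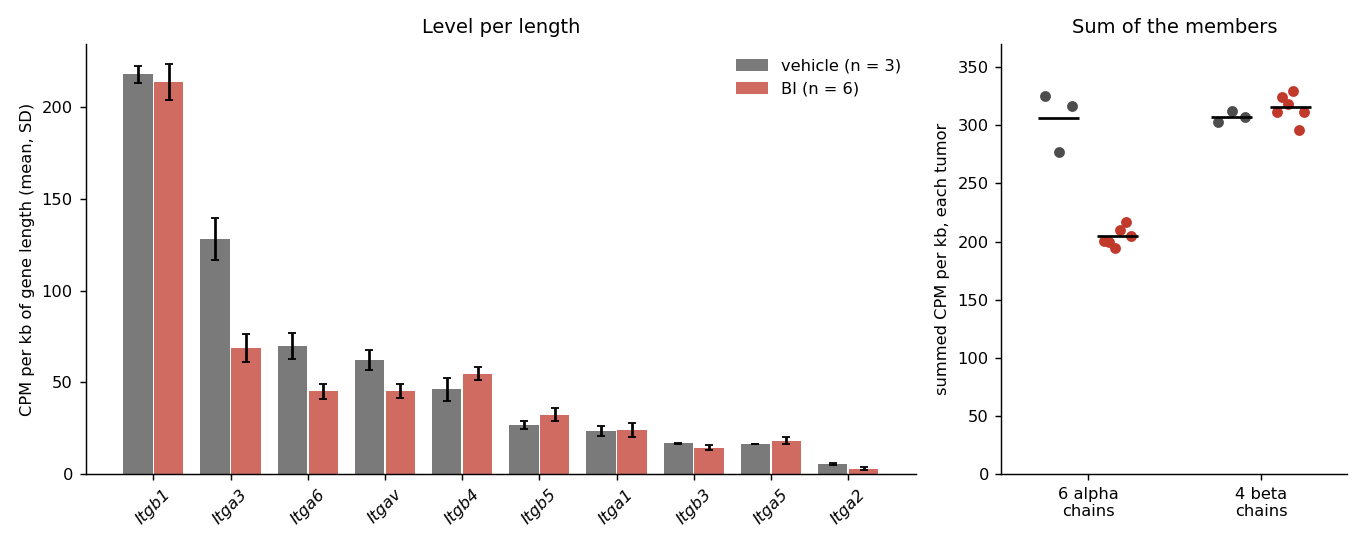
Left, bars give the mean CPM per kb of gene length of each member, with SD, in vehicle-treated (grey, n = 3) and BI-treated tumors (red, n = 6), ordered by the vehicle mean. Right, points give the sum over the 6 α and the 4 β members in each tumor and lines the group means: the α sum moves from 306 to 204 CPM per kb, and the β sum is 308 and 315.

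Summed per tumor, the mRNA of the 6 α members was 277 to 325 CPM per kb in vehicle-treated tumors and 194 to 217 after BI, with no overlap. The sum of the 4 β members was 303 to 312 CPM per kb in vehicle-treated tumors and 296 to 329.7 after BI, with overlap. The ratio of α to β sums was accordingly 0.996 on average in vehicle-treated tumors (range 0.886 to 1.07) and 0.649 in BI-treated tumors (0.609 to 0.732). Over all 26 integrin subunit genes, a wider sum that was added after the levels of the members were seen, it was 0.906 to 0.998 and 0.769 to 0.833. With the mm9 exon union lengths the ratio of the members was 0.688 to 0.83 and 0.472 to 0.57. Neither the sums of the members nor the shares that follow were among the planned comparisons, and no test was run on them.

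The composition of the α pool shifted with it. Itga3 made up 41.9% ± 1.4 of the summed α mRNA in vehicle-treated tumors (SD, n = 3) and 33.5% ± 2.88 after BI (n = 6). The share of Itga5 was 5.41% ± 0.481 and 8.88% ± 0.823, and that of Itga1 was 7.70% ± 0.396 and 11.9% ± 2.13, with no overlap for either. The CPM of neither gene passed the edgeR test (adjusted p = 0.226 and 0.831), and the α sum that each was divided by was lower after BI. Itga6 (22.8% and 22.1%) and Itgav (20.3% and 22.1%) held nearly equal shares in both groups. Of the β pool, Itgb1 made up 70.9% ± 1.61 and 67.8% ± 0.722.

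The ratio of the chains of a heterodimer within a tumor does not depend on how libraries are scaled against each other. Per deposited length, the tumors held, as a geometric mean, 1.52 Itga6 transcripts for each Itgb4 transcript after vehicle (range 1.19 to 1.89) and 0.824 after BI (0.667 to 0.948). These levels depend on the length used: with the exon union length of the mm9 annotation, an alternative added after the values were seen, the ratio was 0.905 to 1.43 after vehicle and 0.505 to 0.719 after BI, so that vehicle replicate 2 was below 1 as well and the groups still did not overlap. On the log2 scale this ratio differed by -0.88 between the group means.

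The ratio of Itga3 to Itgb1 was 0.587 after vehicle (0.54 to 0.654) and 0.319 after BI (0.279 to 0.406), again a log2 difference of -0.88. Itga2 to Itgb1 differed by the same -0.88, Itga6 to Itgb1 by -0.60 and Itgav to Itgb1 by -0.43, all without overlap. For Itgav to Itgb5 the ratio was 2.33 (2.09 to 2.63) and 1.40 (1.09 to 1.72), a log2 difference of -0.74 without overlap. The groups overlapped for Itgav to Itgb3 (-0.25), Itga1 to Itgb1 (0.06) and Itga5 to Itgb1 (0.16), and for the alternative partners Itga3 to Itga6 (-0.28) and Itgb3 to Itgb5 (-0.48). Leaving out any tumor changed the sign of a single ratio, Itga1 to Itgb1 (lowest -0.03).

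**Figure D3:**
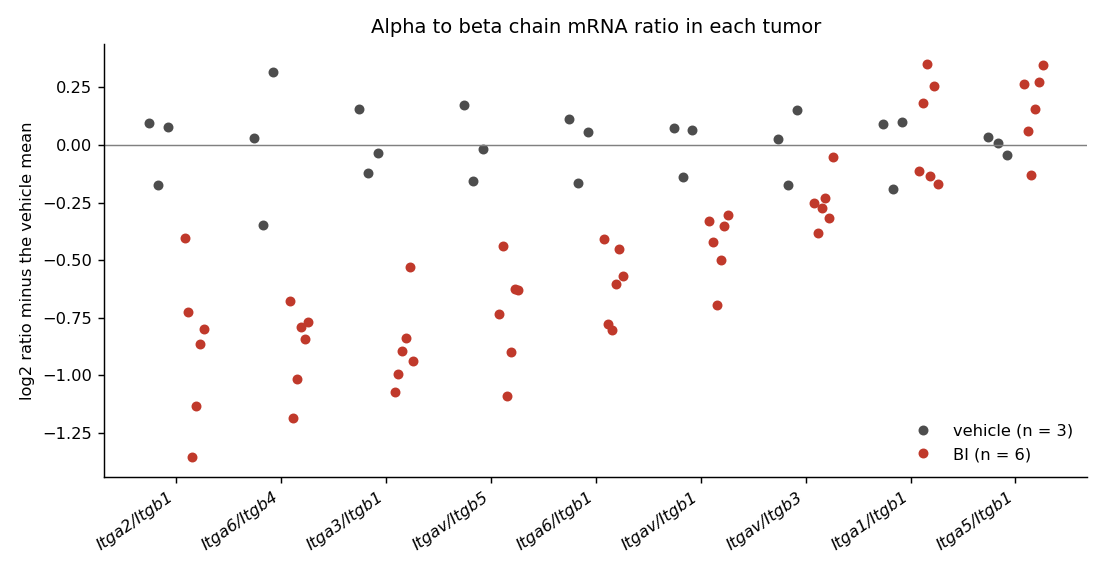
For 9 heterodimers the log2 ratio of the α to the β chain mRNA (CPM per kb) is drawn for each tumor after subtracting the mean of the vehicle-treated tumors. Red points (BI, n = 6) lie below all grey points (vehicle, n = 3) for the first 6 pairs from the left, and the groups overlap for Itgav/Itgb3, Itga1/Itgb1 and Itga5/Itgb1.

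Beyond group means, members varied among tumors of the same group in their own ways. As a description, the 3 genes whose deviations from the group means were most like those of each called member, by Pearson's r over the 9 tumors, were Flna (0.965), Rab7b (0.956) and Wars (0.956) for Itga3, and Ulbp1 (0.966), Fcrla (0.959) and Depdc1b (0.953) for Itga6. For Itga2 they were Fzd6 (0.950), Smc5 (0.935) and Ccbe1 (0.935), for Itgav Cyp2f2 (0.966), Axin2 (0.958) and Runx1t1 (0.955), and for Itgb5 Tmsb4x (0.956), Zfp709 (0.956) and 6330549D23Rik (0.946). These are the highest values among 13966 genes in only 9 libraries, which differed in depth and in the levels of cell type markers. Among the members, the deviations of Itga2 and Itgav went together (r = 0.813), whereas those of Itga1 and Itga5 were opposed (r = -0.852).

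The other integrin subunits were set beside the members. Counts of genes called in these and all later lists stand against 14.6% of all genes tested that rose and 14.1% that fell. Of 8 further matrix-binding subunits 7 could be tested: 1 fell, 2 rose and 4 did not pass, with a median log2 fold change of 0.55. Itga7, another laminin-binding partner of β1 known from muscle, was at 61.6 to 64.9 CPM after vehicle and at 18.6 to 30.8 CPM after BI. Its log2 fold change of -1.44 (SE 0.121, adjusted p = 1.92e-05) was lower than that of any member. The 3 laminin-binding α chains Itga3, Itga6 and Itga7 therefore all fell; this grouping by ligand was made with the values known.

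Itga10, a collagen-binding chain known from cartilage, rose from 17.8 ± 1.64 CPM (SD, n = 3) to 36.9 ± 5.43 CPM (n = 6), a log2 fold change of 1.05 (SE 0.125, adjusted p = 0.000134). Itga9, which binds tenascin and osteopontin, rose by 0.36 on the log2 scale (SE 0.0932, adjusted p = 0.0132), but not without vehicle replicates 1 (0.0718) or 3 (0.0574). Itgb6, the epithelial partner of αv, was under the filter at no more than 0.522 CPM in any tumor, and Itga2b, the platelet partner of β3, was at 1.7 to 4.63 CPM.

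The leukocyte integrin subunits moved the other way from the members that fell. Of 8 tested 6 rose, 1 fell and 1 did not pass, with a median log2 fold change of 0.78. Itga4 (38.5 to 43.2 CPM after vehicle, 69.5 to 105 after BI), the α chain of the receptor for VCAM-1 and fibronectin, rose by 1.03 on the log2 scale (SE 0.134, adjusted p = 0.000237). Itgal, the α chain of LFA-1, rose by 1.03 (SE 0.135, adjusted p = 0.000264). Itgam, the α chain of the myeloid receptor Mac-1 and the most abundant of the list, rose by 0.53 (SE 0.0968, adjusted p = 0.00203). Itgb7 was the one that fell, by 0.68.

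**Figure D4:**
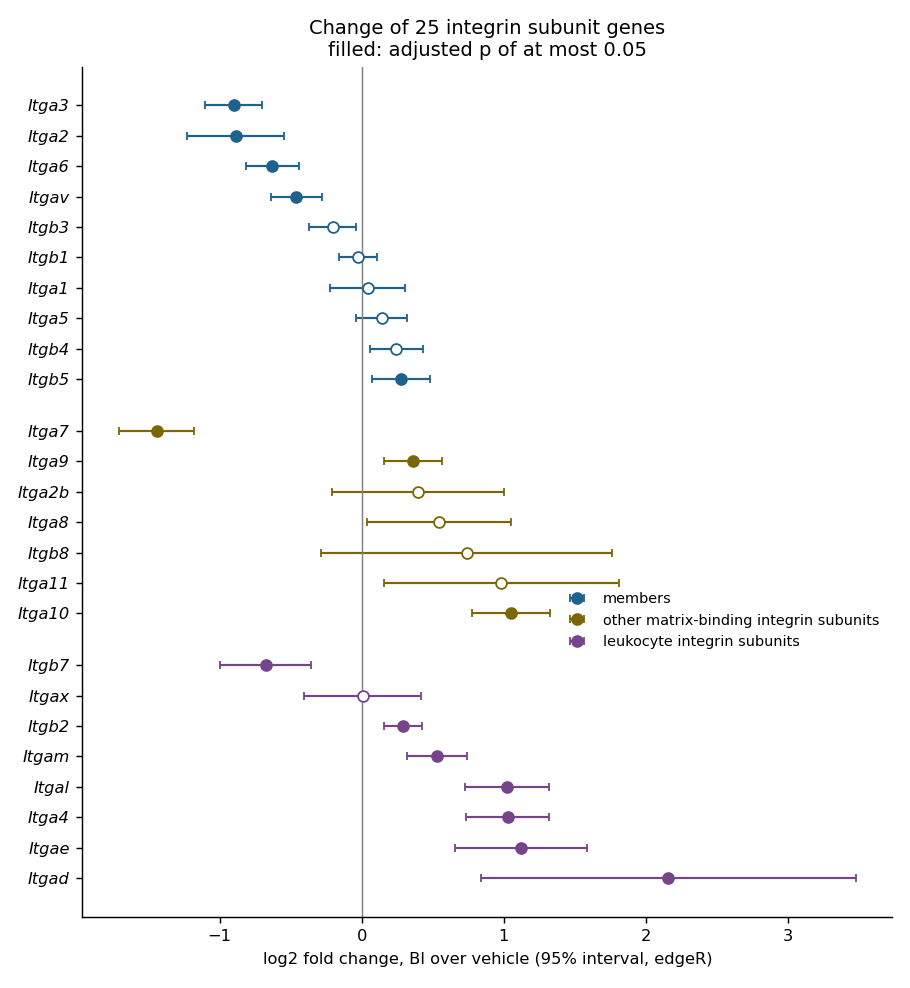
The log2 fold change of each tested integrin subunit gene, BI over vehicle, is drawn with its 95% interval from edgeR for the 10 members (blue), 7 other matrix-binding subunits (ochre) and 8 leukocyte subunits (purple). Filled points have an adjusted p of at most 0.05: Itga3, Itga2, Itga6 and Itgav lie left of 0 with Itga7, and 6 leukocyte subunits lie right of 0.

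Cell type markers were measured beside these results. Of 9 epithelial markers tested 2 fell and 0 rose. Their sum, nearly all of it Krt8 and Krt18, was 949 to 1172 CPM after vehicle and 743 to 945 CPM after BI. Krt18 fell by 0.50 (adjusted p = 0.00636) and Krt8 by 0.28 (adjusted p = 0.0444, but 0.195 without vehicle replicate 2 and lost under 7 of 15 alternatives). The other markers tested went both ways, and none was called by edgeR. Log2 fold changes were 1.06 for Epcam (adjusted p = 0.0987, and 0.0426 by DESeq2), 0.59 for Krt7, 0.15 for Krt19 and 0.11 for Cldn7. They were -0.85 for Krt14, -0.67 for Cldn4 (adjusted p = 0.0939, with no overlap) and -0.21 for Krt5. Endothelial markers summed to 238 to 271 and 260.2 to 368 CPM with 3 of 10 rising, and fibroblast markers to 1476 to 2451 and 1999 to 4001 CPM with 2 of 8 rising. By DESeq2 5 endothelial and 2 fibroblast markers passed, and by limma-voom 3 and 3. Before adjustment 7 and 4 were under 0.05 by edgeR. The endothelial calls by edgeR were each lost without vehicle replicate 3 and without another of the vehicle-treated tumors. Their adjusted p was up to 0.0937, for Cdh5 without vehicle replicate 3. Both fibroblast calls by edgeR, Col1a2 and Thy1, were lost without vehicle replicate 1 (0.161 and 0.0586) or 2 (0.159 and 0.0528). Among pericyte and smooth muscle markers 1 of 8 rose, Acta2, whose call was lost under 8 of 15 alternatives, up to an adjusted p of 0.204 without vehicle replicate 2. Of the platelet markers 1 of 5 tested rose, Gp1ba, which was at or under the floor in all vehicle-treated tumors.

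Among immune markers, 8 of 8 macrophage genes rose (1693 to 2219 CPM and 3339.7 to 4039 CPM in sum). T cell genes rose in 6 of 7 cases (57.8 to 61.2 and 101 to 145 CPM), NK cell genes in 3 of 4 and mast cell genes in 4 of 5, whereas 4 of 5 neutrophil genes fell (515 to 739 and 208 to 361 CPM). Of 5 adipocyte and 5 skeletal muscle genes 0 passed by edgeR, DESeq2 or limma-voom, and before adjustment 2 and 0 were under 0.05. Of the defining epithelial markers other than Krt8 and Krt18, Krt19 averaged 9.71 and 10.8 CPM and the rest were under 5 CPM in both group means. The part of these shifts in the results on integrins was not tested.

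The ligands were taken from fixed lists. The laminin chains tested had a median log2 fold change of -0.08. Lama5, a laminin α chain of mature basement membranes and the most abundant, was at 1561 ± 39.5 CPM after vehicle and 1361 ± 216 CPM after BI (adjusted p = 0.236). Lama4, a laminin chain of vessels, rose by 0.36 (adjusted p = 0.0358). That call was lost under 5 of the leave-one-out fits, up to an adjusted p of 0.166 without vehicle replicate 1.

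Of 10 collagen chains 2 fell and 2 rose, against 14.1% and 14.6% of all genes tested, with a median log2 fold change of 0.48. Col4a1 and Col4a2, the chains of the basement membrane network, fell together. Col4a1 was at 684 to 698 CPM after vehicle and 369.6 to 466 CPM after BI, a log2 fold change of -0.73 (SE 0.0756, adjusted p = 5.97e-05), and Col4a2 fell by 0.59 (adjusted p = 0.000151). The fibrillar chain Col5a1 rose by 0.44 (adjusted p = 0.0283, but 0.12 without vehicle replicate 2). The other fibrillar chain called, Col1a2, lost its call without any of 6 tumors, up to an adjusted p of 0.161 without vehicle replicate 1. The count of collagen chains that rose was therefore unsteady, from 0 (without vehicle replicate 1 or 2 or BI replicate 4) to 6 (without BI replicate 3), whereas 2 fell in every leave-one-out fit.

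Of 14 RGD and matricellular ligands tested 4 rose and 2 fell (the latter 0 without vehicle replicate 3). Fn1, fibronectin, the ligand of α5β1 and of the αv receptors, was the most abundant of all ligands listed, at 8664 ± 1106.5 CPM after vehicle and 13636 ± 2165 CPM after BI. It rose by 0.65 on the log2 scale (SE 0.14, adjusted p = 0.0049), with no overlap. Fbln5, which binds β1 and αv integrins in elastic fibers, rose by 0.88 (adjusted p = 0.00319) and Npnt, a basement membrane ligand of α8β1, by 0.58 (adjusted p = 0.00582). Fn1, Fbln5 and Npnt, as Col4a1 and Col4a2, passed under all 15 alternatives.

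On the cytoplasmic side, 4 of 11 regulators of the integrin tail rose and 3 fell. The kindlins, which activate integrins together with talin, went in opposite directions. Fermt3, the kindlin of blood cells, rose by 0.95 (SE 0.0926, adjusted p = 4.17e-05), and Fermt2, the kindlin of adherent cells, fell by 0.39 (SE 0.0545, adjusted p = 0.000363). Dab2, an endocytic adaptor, rose by 0.54 (adjusted p = 0.00272). Flna, which binds β tails to actin and was the most abundant of the list, was at 1438 and 1265 CPM on average (adjusted p = 0.108).

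The focal adhesion list had 9 genes that fell and 1 that rose among 21, with a median log2 fold change of -0.09. Vcl, vinculin, was at 421 to 477 CPM after vehicle and 284 to 337 CPM after BI and fell by 0.48 (SE 0.0705, adjusted p = 0.00053). Actn1, an actin crosslinker of adhesions, fell by 0.40 (SE 0.0581, adjusted p = 0.000467), and Actn4, the most abundant of the list, by 0.28 (adjusted p = 0.0147), although Actn4 did not pass without vehicle replicates 1 (0.0858) or 3 (0.0608). Tns1, a tensin that links β1 tails to actin, rose by 0.92 (adjusted p = 0.000721).

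Ptk2, named because it encodes the target of the inhibitor, was at 214 to 244 CPM after vehicle and 183 to 209.5 CPM after BI, a fall of 0.20 on the log2 scale (adjusted p = 0.0259). That call was lost without vehicle replicates 1 (0.0814) or 3 (0.133) or BI replicate 4 (0.0514). The count of adhesion genes that fell was 5 without vehicle replicate 1 or vehicle replicate 3. Over all genes tested the number that fell was lower in these fits too, at 1172 without vehicle replicate 3 against 1973 in the main fit.

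None of the 6 hemidesmosome partners passed the edgeR test, where 0 were under 0.05 also before adjustment, and 0 passed by DESeq2 or limma-voom. Dst, which encodes the plakin BPAG1 and was the most abundant, was at 922 and 868 CPM on average, a log2 difference of -0.09 (adjusted p = 0.557), and Krt5, Krt14 and Col17a1 averaged under 1 CPM. Of 10 lateral membrane partners 3 fell and 1 rose: Bsg, basigin, fell by 0.37 (adjusted p = 0.00327), Cd63 by 0.25 (adjusted p = 0.0115), and the tetraspanin Cd82 rose by 0.57 (adjusted p = 0.0197). Cd63 lost its call without vehicle replicates 2 (0.062) or 3 (0.0517), and Cd82 without vehicle replicates 1 (0.0856) or 3 (0.0858). Without vehicle replicate 2 the number of lateral partners that fell was 1. Cd9, the most abundant, was at 711 and 684 CPM.

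Of 8 trafficking genes, 1 fell: Rab11fip1, an effector of the recycling GTPase Rab11, by 0.42 (adjusted p = 0.00951), which was just over 0.05 without vehicle replicate 1 or 3 (0.0501 for the latter). Arf6, a GTPase of integrin recycling, was at 373 and 364 CPM.

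**Figure D5:**
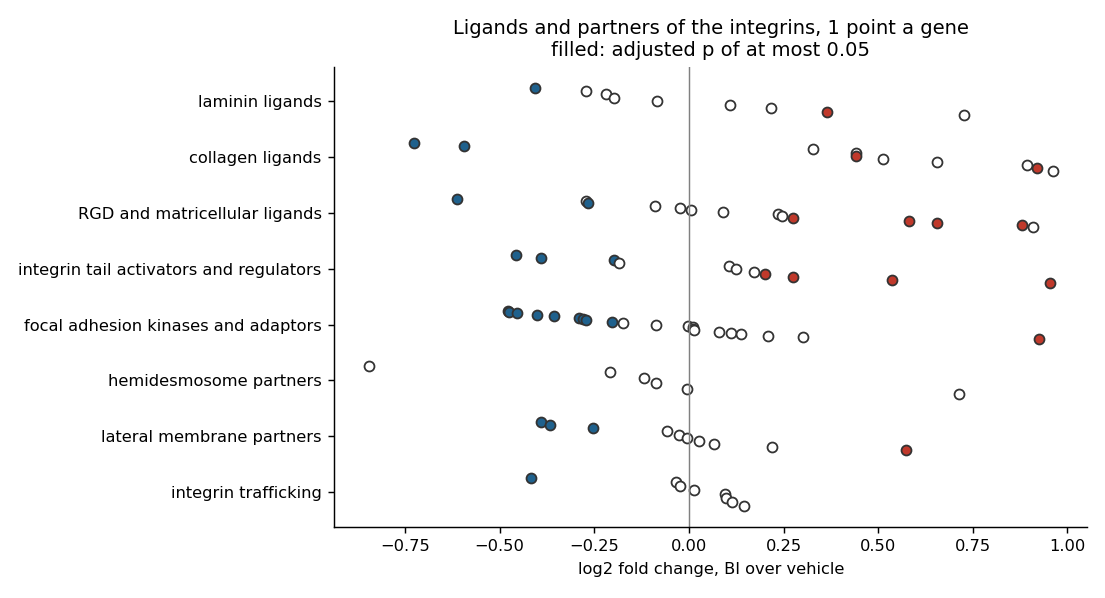
Each point is 1 tested gene of a list of integrin ligands or partners, placed by its log2 fold change, BI over vehicle. Filled points have an adjusted p of at most 0.05 (red, rose; blue, fell), as for 9 focal adhesion genes left of 0 and none of the hemidesmosome partners.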

How the data were processed

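Stranded mRNA libraries of 9 tumors were sequenced in paired ends. The deposited values are raw counts: the authors aligned reads to mm9 with STAR, kept unique hits, and counted with QuasR the reads starting in any exon of a RefSeq gene. Strand use in counting is not given in the sources used here. The deposited gene length, in bases, was used only for levels per kb; how the authors computed it is not stated, so those levels depend on it.

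Counts of BI and vehicle were compared with edgeR 4.0.16 in R 4.3.3: filterByExpr (minimum count 10, minimum total 15), TMM, and the quasi-likelihood test without covariates, as the labels name no batch or pairing. Log2 CPM used a prior count of 2. Alternatives were RLE or library size scaling, other filters, DESeq2 1.42.0, limma-voom (limma 3.58.1), the study's cutoffs and leaving out each tumor. Scripts were tested on simulated data. Symbols came from RefSeq for 18700 of 18755 genes, positions from GENCODE vM1 on mm9. Named were all members and, of each list, the most abundant gene and the 3 called genes of smallest p; Ptk2, Itgb7, Itga2b, Itgb6, Col1a2, the marker genes and the genes given in sensitivity values were chosen outside that rule. A gene of the ligand lists is not reported here. The members and lists were chosen with earlier results of these data known. Intervals and floors cover counting error or the spread of these tumors only.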

Additional observations from a re-analysis of the deposited data

Results flagged for a closer look

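The 6 BI-treated tumors were tested for a tumor far from the others in 21 measures, the 10 members and 11 chain ratios, and 1 stood out: for Itgb4, on the log2 CPM scale, BI replicate 2 (379 CPM) lay above the other 5 BI-treated tumors (318 to 337 CPM) by a gap of 0.672 of the range of the group, past the 95% critical value of Dixon's ratio for 6 samples. Chance alone would set apart about 1 measure in 20. With this tumor left out, Itgb4 differed by 0.21 on the log2 scale (edgeR adjusted p = 0.0751), against 0.24 (0.0529) with it. For Itga6, the partner of Itgb4, the same tumor was at 246 CPM, within the range of the other BI-treated tumors.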

How the results depend on the processing

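Itga2, Itga3, Itga6 and Itgav kept their direction and passed the adjusted threshold under all 15 alternatives to the main edgeR fit; with the study's cutoffs Itgav alone of them did not pass, since its change was under 1.5-fold. The number of members that fell was 4 to 5 when single tumors were left out. The number that rose was 1 in the main fit, 2 with RLE, library size scaling, a filter of 1 CPM, DESeq2 or limma-voom (Itgb4 joined Itgb5), 0 without a filter, 0 with the study's cutoffs, and 0 to 1 when single tumors were left out. The gene behind this count changed: Itgb4 in place of Itgb5 without vehicle replicate 2, and Itga5 in place of Itgb5 without BI replicate 3. Over all genes, the study's cutoffs gave 1337 that rose and 498 that fell, against 2040 and 1973; leaving out single tumors gave 1332 to 2026 and 1172 to 1980, the lowest of both without vehicle replicate 3, and 1289 fell without vehicle replicate 1. Itga1 and Itgb1, near 0 throughout, changed sign: Itga1 ranged from -0.052 (without vehicle replicate 2, and -0.03 without BI replicate 3) to 0.11, and Itgb1 from -0.042 to 0.0036 (without BI replicate 5). The cause was not tested. Of 77 other listed genes called, 47 passed under every alternative that gave a value for them. The median log2 fold change of all genes moved by less than 0.1 under every scaling. No paired analysis was possible because the labels give the groups no shared replicate numbers. With 3 vehicle-treated tumors, the calls of small changes such as those of Itgb3, Itgb4 and Itgb5 changed when single tumors were left out. Those of Itgb4 and Itgb5 also changed with the processing of all 9 tumors. Depth was no limit for the members.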
